A study of Mus musculus with 2 samples.

Results

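Isolated CTCF peaks in embryonic mouse limb were chosen by position alone: on chromosomes 1 to 19, a peak of the deposited optimal list (the list thresholded on agreement between replicates) was called isolated when no other summit of that list lay within 150 kb on either side. The rule kept 854 of 48806 peaks on these chromosomes, or 1.75%, and the other 47952 peaks serve as the comparison. The whole optimal list held 49970 peaks. Since the members were selected on the positions of the same peaks, the spacing and the length of the intervals beside them are descriptions. The chromatin came from limbs of mouse embryos of strain B6NCrl at 14.5 days, males and females together, with no other genotype or treatment. Per the labels, limbs from several dissections were pulverised and pooled, and the 2 libraries, replicate 1 and replicate 2, were immunoprecipitated with an antibody to CTCF. Because both libraries came from pooled tissue, the spread between them may be technical, and no library without the antibody was analysed here. A whole limb mixes many cell types, so fewer cells with a bound site and weaker binding in each cell cannot be told apart. The lists hold no read counts, so the depth is unknown, and all values are the authors' signal per peak on the scale of its own list.

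CTCF is a DNA-binding protein with a row of zinc fingers, of which the central ones read a long, partly variable motif. Together with cohesin it halts loop extrusion, and pairs of sites whose motifs point toward each other often anchor chromatin loops and domain borders. In the embryonic limb, CTCF sites flank loci such as the Hox clusters, where long-range enhancers act within domains. A peak with no other peak for a long distance on either side stands at the edge of long stretches without a summit of the optimal list. Such stretches need not lack bound sites.

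The following 60-base windows are shown because they carry the results described after them: the strongest isolated peaks, the most remote ones, the members beside developmental genes, and the pair that edges a 3.10 Mb interval with no coding gene. Each window was read from GRCm38 (mm10), is written 5′ to 3′ on the strand of the motif, and has the best match to the CTCF motif in capitals. The motif was learned from other peaks of these data, and its most frequent base at each of its 20 positions reads TGGCCACCAGGGGGCACCAG. Windows with no match over the score threshold stay in lower case on the forward strand.
Samd12 side, strongest, chr15:54070142-54070201, forward strand: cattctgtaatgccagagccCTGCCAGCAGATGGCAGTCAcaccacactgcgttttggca
Cpne8 promoter, chr15:90680128-90680187, forward strand: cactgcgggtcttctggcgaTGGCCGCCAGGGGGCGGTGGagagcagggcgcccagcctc
Irx1 side, chr13:71458554-71458613, forward strand: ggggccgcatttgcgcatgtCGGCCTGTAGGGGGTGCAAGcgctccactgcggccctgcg
Vps13b intron, chr15:35915337-35915396, reverse strand: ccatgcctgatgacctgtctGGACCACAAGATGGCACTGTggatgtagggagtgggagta
Olfr275 side, chr4:52726806-52726865, reverse strand: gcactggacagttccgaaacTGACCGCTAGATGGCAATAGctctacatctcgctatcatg
Vmn1r66 side, most remote, chr7:10354860-10354919, forward strand: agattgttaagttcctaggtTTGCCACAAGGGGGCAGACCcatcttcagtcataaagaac
Efna5 side, remote, chr17:61321044-61321103, reverse strand: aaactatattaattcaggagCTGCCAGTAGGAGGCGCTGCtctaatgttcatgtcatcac
Sis side, remote, chr3:71916264-71916323, forward strand: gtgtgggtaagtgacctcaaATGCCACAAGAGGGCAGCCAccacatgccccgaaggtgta
Tpm3-rs7 side, remote, chr14:112895743-112895802, reverse strand: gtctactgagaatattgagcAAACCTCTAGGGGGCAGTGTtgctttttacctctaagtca
Cntnap2 side, chr6:45026447-45026506, reverse strand: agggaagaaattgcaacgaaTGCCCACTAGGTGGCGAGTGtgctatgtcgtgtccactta
Cntn5 side, chr9:10909730-10909789, forward strand: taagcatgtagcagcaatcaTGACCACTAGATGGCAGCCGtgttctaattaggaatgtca
Fgf10 upstream, chr13:118596998-118597057, reverse strand: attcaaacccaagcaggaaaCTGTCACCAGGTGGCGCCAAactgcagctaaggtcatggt
Fgf10 intron, chr13:118763151-118763210, forward strand: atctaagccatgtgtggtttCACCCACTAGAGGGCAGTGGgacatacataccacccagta
Gli3 intron, chr13:15556703-15556762, forward strand: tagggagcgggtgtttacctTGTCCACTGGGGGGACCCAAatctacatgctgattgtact
Lingo2 promoter, no match, chr4:36950510-36950569, forward strand: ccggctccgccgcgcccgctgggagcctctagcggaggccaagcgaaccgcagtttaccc
Epha5 promoter, no match, chr5:84417539-84417598, forward strand: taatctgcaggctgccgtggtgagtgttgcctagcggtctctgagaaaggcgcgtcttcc
Interval edge, left, chr14:80845721-80845780, forward strand: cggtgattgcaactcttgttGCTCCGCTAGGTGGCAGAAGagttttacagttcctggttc
Interval edge, right, chr14:83944356-83944415, reverse strand: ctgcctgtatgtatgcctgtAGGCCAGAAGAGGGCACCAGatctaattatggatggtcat
The best match held the most frequent base at 11 of its positions in the Samd12 peak and at 15 in the Cpne8 peak, and at 14 in the much weaker Vmn1r66 peak. Over the 722 isolated peaks with a match the median was 12 of 20 positions, and over every 10th other peak with a match (n = 3893) it was 13. The interval-edge motifs of chromosome 14 point toward each other across the empty stretch.

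Isolated peaks were of lower signal than the other peaks, and the strongest class of sites was thin among them. Their median signal was 44.3, with a 95% order-statistic interval of 41.4 to 48.0, against 58.9 (58.1 to 59.8) for the other peaks. The quartiles were 26.6 and 90.02 for isolated peaks and 29.9 and 145.2 for the others, so the gap was widest in the upper part of the distributions. In the separate libraries the medians were 23.5 for isolated and 30.9 for other peaks in replicate 1, and 21.7 for isolated and 29.4 for other peaks in replicate 2. The isolated median was the lower in 18 of the 19 chromosomes, in 19 by replicate 1 alone and in 18 by replicate 2 alone. Chromosome 7 was the exception in the pooled values, with medians of 61.1 for isolated and 61.0 for other peaks. Only 23 isolated peaks, or 2.69%, were among the strongest 10% of all these peaks, against 10.1% of the other peaks. Peaks share chromosomes and neighbourhoods and are not independent, so these intervals cover counting error only and no test was run. Isolated and other peaks also differed in distance to genes, and medians by that distance are given below.

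**Figure D1:**
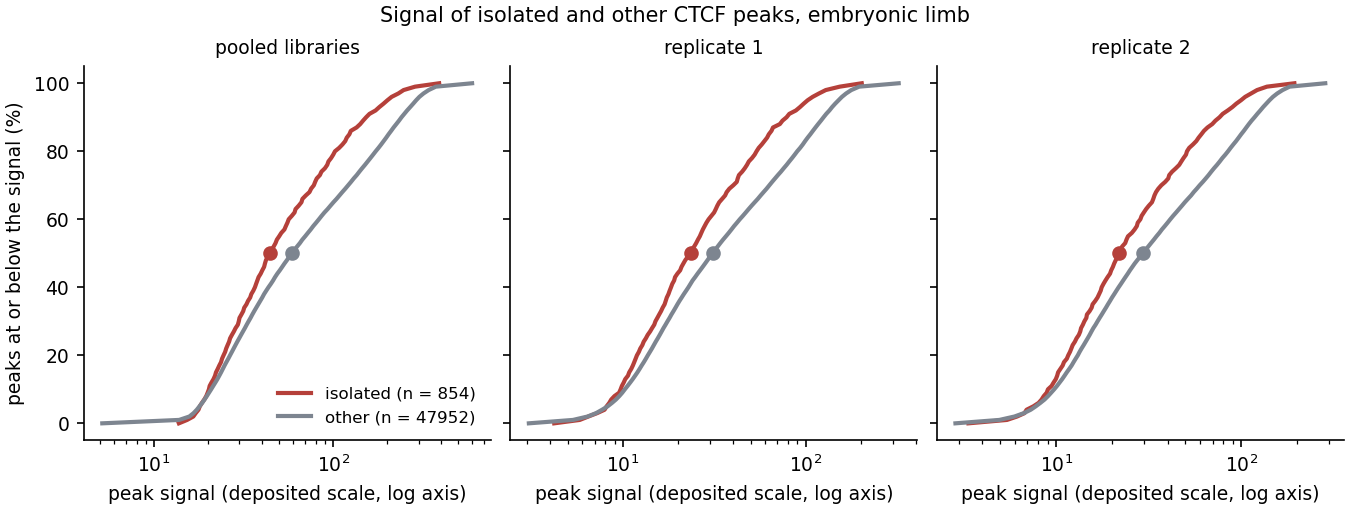
Cumulative share of peaks (%) against peak signal (deposited scale, log axis) in the pooled list and in replicates 1 and 2, for 854 isolated peaks and 47952 other peaks; dots mark the medians. The isolated curve lies left of the other curve over most of its length in all 3 panels, and the curves meet at the low end.

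The signal did not drop at the 150 kb threshold itself. Among peaks that were not isolated, the median was 66.8 for those with the nearest summit at 1 to 5 kb, 60.1 at 5 to 20 kb, 54.6 at 20 to 50 kb, 47.8 at 50 to 100 kb and 45.3 at 100 to 150 kb. Among isolated peaks it was 47.8 at 150 to 200 kb, 44.1 at 200 to 300 kb, 42.4 at 300 to 500 kb and 40.5 beyond 500 kb, where 80 peaks lay. The medians thus fell over the whole range past 5 kb with a small step back up at the threshold, and the closest class, under 1 kb, stood at 50.6. Just inside the rule lay a peak in an intron of Pvt1, a long noncoding gene downstream of Myc, with its neighbour at 150.2 kb and signal 25.6. Next to it by distance were a peak at the Zbtb10 promoter (150.6 kb, 34.8) and a peak 274.9 kb from Slc16a7 (150.6 kb, 48.5). Just outside lay a promoter peak of Rab32, a small GTPase gene, at 149.9 kb with signal 395.0, above every isolated peak. The next 2 outside, nearest Rbm26 and Yipf5, had neighbours at 149.9 kb and 149.7 kb and signals of 39.8 and 128.6.

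**Figure D2:**
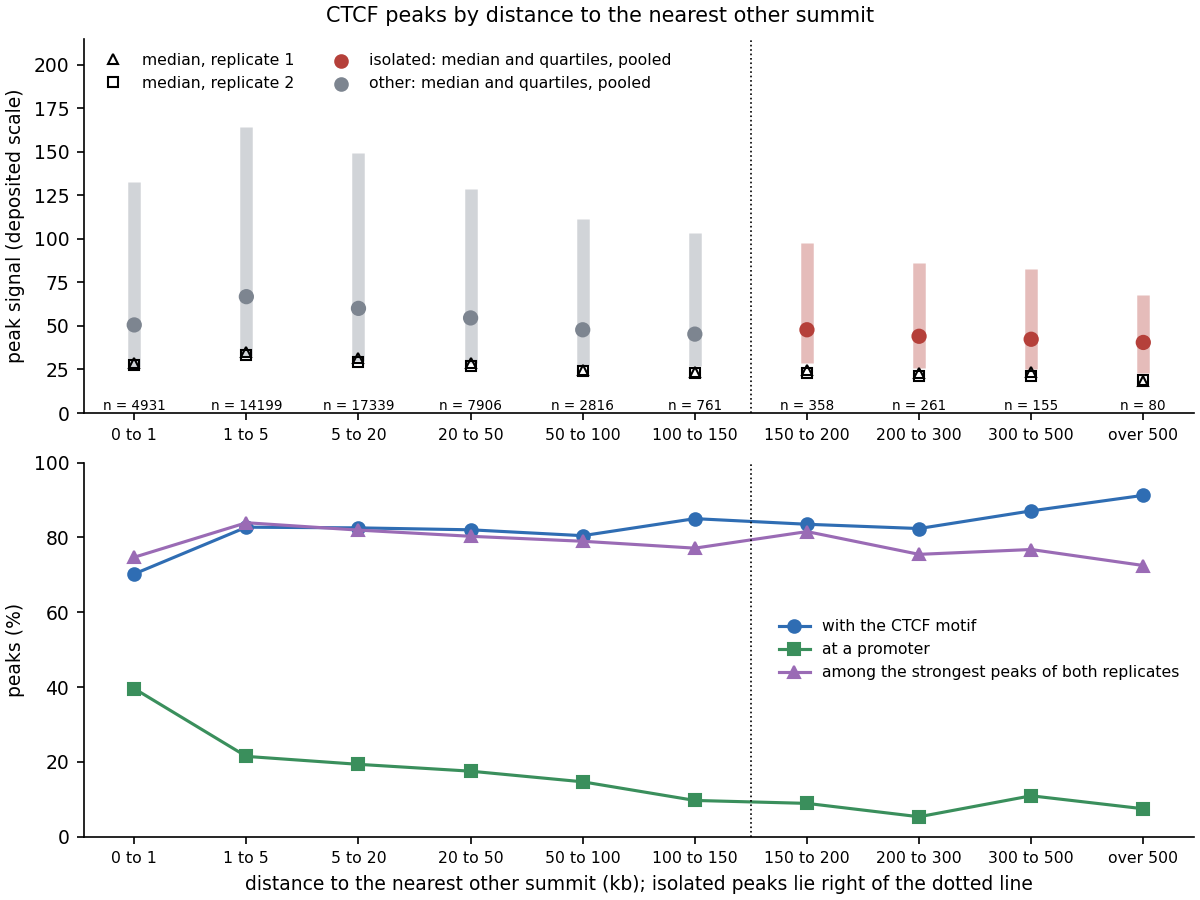
Upper panel: median (dot) and quartiles (bar) of pooled peak signal, with the medians in replicates 1 and 2 as open marks, by distance to the nearest other summit (kb); lower panel: share of peaks (%) with the CTCF motif, at a promoter, and among the strongest peaks of both replicates. Median signal runs from 66.8 at 1 to 5 kb to 40.5 beyond 500 kb, and isolated peaks lie right of the dotted line.

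The sequence under isolated peaks matched the CTCF motif with scores close to those under the other peaks, while their median signal was lower in each quartile of the score. A match over the threshold, which 5% of windows 1 kb away reach, was found within 50 bp of the summit in 722 of 854 isolated peaks (84.5%, 95% exact interval 81.9 to 86.9), against 81.2% of the other peaks. The motif share was the higher in isolated peaks on 13 of 19 chromosomes. Split by place relative to genes, described below, it was not the higher in every class. It was 87.4% in isolated and 86.9% in other intergenic peaks, and 58.0% and 65.1% in promoter peaks. With the stricter score reached by 1% of such windows the shares were 62.3% for isolated and 61.1% for other peaks. Isolated peaks with a match had a median score of 13.7, against 13.8 for other peaks with a match. The motif lay on the forward strand in 362 of the 722. In isolated peaks, a match went with a median signal of 48.4 and no match with 28.8, against 73.7 and 30.0 in other peaks. The intervals of the medians without a match overlapped, at 25.2 to 33.3 for isolated and 29.5 to 30.5 for other peaks, and those with a match did not, at 44.5 to 54.4 and 72.5 to 74.9. Ranked by score over all peaks with a match, the lowest quartile had medians of 38.1 in isolated and 43.5 in other peaks, and the highest quartile had 80.9 in isolated and 147.5 in other peaks. The GC content of the bases within 100 bp of the summit had a median of 44.3% in isolated and 49.8% in other peaks.

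The 2 libraries gave similar values at the members. Of 854 isolated peaks, 842 had a summit within 100 bp in the full lists of both replicates. Across those 842 peaks, which share both libraries, Spearman's rho between the replicate signals was 0.890 and Pearson's r of log2 signal was 0.9002, against 0.937 and 0.931 across 46724 other peaks. The SD of the log2 ratio between replicates was 0.51 in isolated and 0.50 in other peaks, and 52 isolated peaks (6.18%) differed by over 2-fold after scaling, against 6.15% of the other peaks. Among the strongest 49970 peaks of each replicate, 666 isolated peaks were found in both (77.99%, 75.1 to 80.7), against 81.3% of the other peaks. Among the strongest 100000 of each, the order turned round, with 96.96% of isolated and 95.5% of other peaks. Judged within each replicate's own strongest 49970 peaks, 630 members (73.8%) were isolated in replicate 1 and 630 in replicate 2, and 506 (59.3%) in both.

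**Figure D3:**
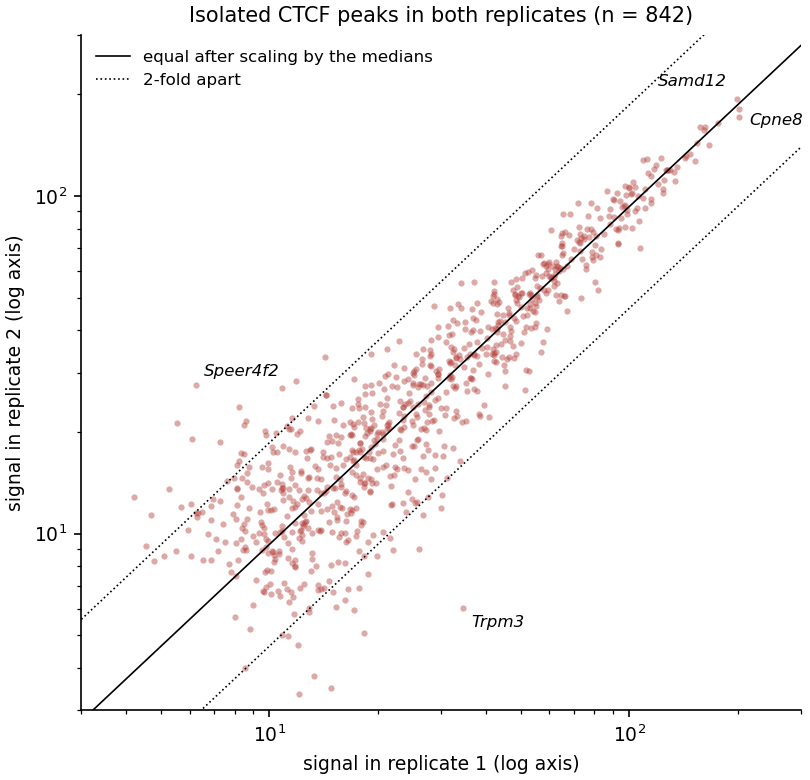
Signal in replicate 2 against signal in replicate 1 (log axes) at the 842 isolated peaks that the full list of each library holds; the line marks equality after scaling by the medians and the dotted lines a 2-fold ratio. Strong peaks such as those near Samd12 and Cpne8 lie on the line, and the spread grows at low signal, with the Trpm3 and Speer4f2 peaks farthest out.

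The 10 members that differed most between libraries had pooled signals of 15.2 to 41.3, below the isolated median of 44.3. In the library where they were higher, some passed that library's isolated median, which was 23.5 in replicate 1 and 21.7 in replicate 2. The peak at the promoter of Trpm3, a cation channel gene, had a signal of 34.4 in replicate 1 and 6.03 in replicate 2. The next most shifted to replicate 1 are named by the nearest coding start site, which could be far away. They were 1449.4 kb from Pcdh20 (14.9 and 3.50) and 546.6 kb from Inhba (18.3 and 5.09). Closer were the peaks 56.3 kb from Gpr141 (12.1 and 3.36) and 76.9 kb from Vmn1r66 (13.3 and 3.80). In the other direction, the peak nearest Speer4f2 had 6.23 in replicate 1 and 27.6 in replicate 2. It was followed by peaks nearest Abca8a (5.54 and 21.3), Ccnh (6.11 and 19.1), Prr16 (4.21 and 12.9) and Adgrl3 (8.21 and 23.7). None of these 10 was among the strongest peaks of both replicates. The weakest members, nearest Mpdz, Zfp648 and Ctsj, had pooled signals of 13.8, 14.2 and 14.4, and none of the 3 was among the strongest of both replicates either.

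At the other end stood 10 strong and steady members. The strongest isolated peak, on chromosome 15 at summit 54070172, lay 167.6 kb upstream of Samd12, with neighbours 284.6 kb to the left and 208.0 kb to the right. Its signal was 391.0 pooled, and 199.1 and 193.9 in replicates 1 and 2 (196.5 ± 3.69, SD, n = 2). It ranked number 349 among the 48806 peaks. The second, 0.731 kb upstream of the first start site of Cpne8, a copine gene for a calcium-dependent membrane-binding protein, had 384.2 pooled, and 201.7 and 181.4 in the replicates. The third lay 505.1 kb downstream of the start of Irx1, a homeobox gene expressed in limb and digit development, and had 371.7 pooled, and 202.2 and 171.6 in the replicates. No coding gene started within 500 kb of it. The next, in an intron of Vps13b, a gene for a lipid transfer protein, had 339.4 pooled, and 176.4 and 164.4 in the replicates. Then came a peak 87.8 kb from the odorant receptor gene Olfr275, with 325.8 pooled and 161.9 and 160.3 in the replicates. The remaining 5 were nearest Brms1l (317.6), Rgs17 (315.2), 4930452B06Rik (308.3), St3gal1 (295.3) and Ebf1 (279.6). The Ebf1 peak, at summit 45008312 on chromosome 11, lay just past the 3′ end of that transcription factor gene, which the annotation puts at 45008091. The difference between the replicates was between 1.03% and 16.6% of their mean at these 10, and all 10 had a motif.

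Isolated peaks lay far from genes. The median distance from the summit to the nearest first start site (TSS) of a protein-coding gene was 296.1 kb (266.4 to 320.1) for isolated peaks and 21.8 kb (21.4 to 22.3) for the others. This TSS was over 100 kb away for 647 isolated peaks (75.8%, 72.7 to 78.6), against 17.3% of the other peaks. It was over 500 kb away for 238 isolated peaks (27.9%), against 1.51% of the other peaks. Isolated peaks had a median of 1 coding TSS within 500 kb on either side, and other peaks had 11. Counting the start of any annotated transcript, noncoding genes and pseudogenes included, the median distance was 31.1 kb for isolated and 6.22 kb for other peaks.

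By annotation, 547 isolated peaks (64.1%, 60.7 to 67.3) were intergenic, against 34.4% of the other peaks. Another 223 (26.1%) lay in introns, against 38.9%, and 15 (1.76%) in exons, against 5.33%. Promoter peaks, within 1 kb of the start of any transcript, numbered 69 (8.08%, 6.34 to 10.1), against 21.4% of the other peaks. Intergenic isolated peaks had a median signal of 44.3 and other intergenic peaks 70.8, while the promoter peaks had 39.8 when isolated and 52.3 otherwise. Far from genes the signal gap was narrower. Over 500 kb from a coding TSS the medians were 41.3 (36.0 to 47.2) for isolated and 45.5 (41.8 to 48.1) for other peaks. At 100 to 500 kb, where 409 isolated peaks lay, they were 45.1 (39.9 to 51.5) and 49.4 (47.5 to 51.1). The intervals overlap in both classes. Nearer to a TSS the medians were 41.3 and 48.6 at 0 to 1 kb, and 49.1 and 62.5 at 1 to 10 kb. They were 52.2 and 67.8 at 10 to 50 kb, and 42.1 and 58.5 at 50 to 100 kb. Only at 1 to 10 kb did the intervals not overlap. The motif share in isolated promoter peaks was 58.0% (45.5 to 69.8), below the 87.4% of isolated intergenic peaks, and other promoter peaks had 65.1%. Summits in soft-masked repeats numbered 103 (12.1%, 9.95 to 14.4) among isolated peaks, against 17.5% of the other peaks. The surroundings went the other way: soft-masked bases made up a median of 38.1% of the sequence within 150 kb of isolated peaks and 28.0% around other peaks.

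Among the 69 promoter members, those of coding genes were mixed in strength. After Cpne8, the strongest was at a noncoding gene, 4930503O07Rik, 395.0 kb from Plxna2, with a signal of 276.1. A noncoding gene's promoter 199.1 kb from Dph6 carried 224.8. The promoter of Cbln2, a gene for a secreted synaptic organiser, carried 200.99, with 110.3 and 91.9 in the replicates and no motif over the threshold. Promoters of A830018L16Rik (162.3), Lingo2 (150.1) and Pdgfd (116.9) followed among coding genes. Lingo2, a gene for a neuronal leucine-rich repeat membrane protein, had 73.6 and 75.1 in replicates 1 and 2, and no match to the motif. Pdgfd, a platelet-derived growth factor gene, had 61.7 and 57.5. The remaining 3 of the 10 strongest lay at the starts of a small nucleolar RNA gene 384.2 kb from Mei4 (152.5), of the pseudogene Olfr1069-ps1 (142.7) and of a pseudogene 658.2 kb from Rps29 (137.2).

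For 10 isolated peaks, the nearest coding gene by first start site was a listed developmental gene and lay within 100 kb. The lists were those of limb patterning, cartilage and bone, muscle and tendon, and nerve and guidance genes. Peaks with an unlisted gene nearer were not counted. The same count over the other peaks is not given here, so 10 of 854 is not read as many or few. Cntnap2, a gene for a neurexin-like adhesion protein of axons, had a peak 32.9 kb upstream of its start, with a signal of 244.1, and 134.0 and 110.7 in the replicates. Cntn5, a gene for a contactin cell adhesion protein, had a peak 4.99 kb upstream, with 142.6, and 64.4 and 76.2 in the replicates. Both lie beside long stretches with no summit, 933.9 kb to the left of the Cntnap2 peak and 560.8 kb and 525.5 kb on either side of the Cntn5 peak. Sema3a, which encodes a secreted axon repellent, had a peak in its first kilobases with a signal of 53.9. The cadherin genes Cdh12, Cdh8 and Cdh7 had 42.4, 33.4 and 32.9. Epha5, an ephrin receptor gene, had 28.3 at its promoter with no motif match, and its nearest summits lay 638.8 kb to the left and 1169.3 kb to the right.

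Fgf10, the mesenchymal growth factor gene that drives limb bud outgrowth, had an isolated peak on either side of its start. The upstream peak, 72.8 kb before the start, had 42.2 pooled, and 19.2 and 22.9 in the replicates. The intronic peak, 93.4 kb past the start, had 23.1 pooled, and 11.6 and 12.5 in the replicates. They are each other's nearest summits at 166.2 kb, and the next summit past the intronic peak was 520.4 kb away. Gli3, the transcription factor gene of Hedgehog signalling that patterns digits, had an isolated peak in an intron 93.5 kb from its start, with 28.0 pooled, and 14.3 and 13.4 in the replicates. All 3 of these Fgf10 and Gli3 peaks were below the isolated median of 44.3.

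The neighbourhood of isolated peaks was sparse but not empty in the unthresholded pooled list, which holds 300000 entries. A median of 12 pooled entries that are not optimal peaks lay within 150 kb of isolated summits, against 48 around other summits. At least 1 of the strongest 100000 pooled peaks lay there for 615 isolated peaks (72.0%, 68.87 to 75.003), against 98.6% of other peaks. The strongest such entry had a median signal of 12.2 near isolated and 20.8 near other peaks. For 239 isolated peaks no entry of the strongest 100000 was nearby. The summits that end the intervals beside isolated peaks, isolated ones included, had a median signal of 49.1. Of these 1699 neighbours, 904 (53.2%) were stronger than the isolated peak beside them. In 325 intervals both edges were isolated, and each such pair was counted from both sides. It adds 1 stronger and 1 weaker neighbour whatever the values, which draws the 53.2% toward an even split. Isolated peaks were not spread evenly over chromosomes: they made up 0.762% of the peaks of chromosome 11 and 3.03% of those of chromosome 3.

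Isolated peaks edge long intervals with no summit of the optimal list. There were 1374 such intervals, 325 of them with an isolated peak at both edges, and together they spanned 591.8 Mb, 24.6% of the autosomal bases outside assembly gaps. Their median length was 293.7 kb, the quartiles were 197.5 and 488.6 kb, and 100 were over 1 Mb. No coding gene touched 625 of them (45.5%), and 1082 (78.7%) held no coding gene whole. Coding genes wholly inside numbered 1374, by coincidence the number of intervals, which is 6.6% of 20807 autosomal coding genes. These genes were short, with a median length of 7.23 kb, against 17.6 kb for all coding genes. The 398 genes that crossed an interval's edge were long, with a median of 196.3 kb. Another 1752 intervals over 150 kb, with no isolated edge, spanned 533.2 Mb and held 2153 coding genes whole. Their gene families are not given here. Isolated peaks often came in rows: 347 stood with no isolated neighbour, and the longest row held 7 on chromosome 1 from 112704159 to 117123146, with Cntnap5a and Gm19965 as the coding genes touched.

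The longest interval beside an isolated peak ran over 3737.2 kb of chromosome 1, from 25829129 to 29566311. It held the short genes 4931408C20Rik and Gm597, and the start of Adgrb3, an adhesion receptor gene of neurons, crossed its left edge. The isolated peak at its right edge had a signal of 21.6, and 12.5 and 7.10 in the replicates. The second, on chromosome 11 from 12811387 to 16257538 (3446.2 kb), held Pom121l12 alone, and its isolated left edge had a signal of 181.0. The fifth, on chromosome 13 from 86238242 to 89334705 (3096.5 kb), held Edil3, an extracellular matrix gene of 501.8 kb that ended close to the right edge. The ninth, on chromosome 14 (2744.9 kb), held Slitrk1, a synaptic adhesion gene. No coding gene touched the third and eighth (chromosome 1, 3205.9 and 2829.8 kb), the interval ranked 4 (chromosome 14, 3098.6 kb) or the tenth (chromosome 3, 2376.5 kb). The edges of these 4 had signals between 16.6 and 249.7.

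The sixth and seventh were filled with sensory receptor genes. The interval on chromosome 7 from 7299528 to 10354878 (3055.4 kb) held 25 coding genes, of which 24 were vomeronasal receptor genes, which encode pheromone receptors. That on chromosome 17 from 17899423 to 20945435 (3046.0 kb) held 34, of which 30 were vomeronasal and the others were formyl peptide receptor genes such as Fpr-rs4. The pooled list was thin there too, with 3 entries (0.982 per Mb) in the interval on chromosome 7 and 31 (10.2 per Mb) in that on chromosome 17. The 4 long intervals with no coding gene had between 16.8 and 25.9 entries per Mb, and the autosomes as a whole had 123.2. Whether reads could be placed in these repeated gene arrays was not tested. The interval on chromosome 7 also held 50000 assembly gap bases, and its isolated edge, the Vmn1r66 peak, was the most remote of all and had 13.3 in replicate 1 against 3.80 in replicate 2. That peak had no other summit for 2123.4 kb on its nearer side. A longer interval with no isolated edge existed, of 4155.6 kb.

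**Figure D4:**
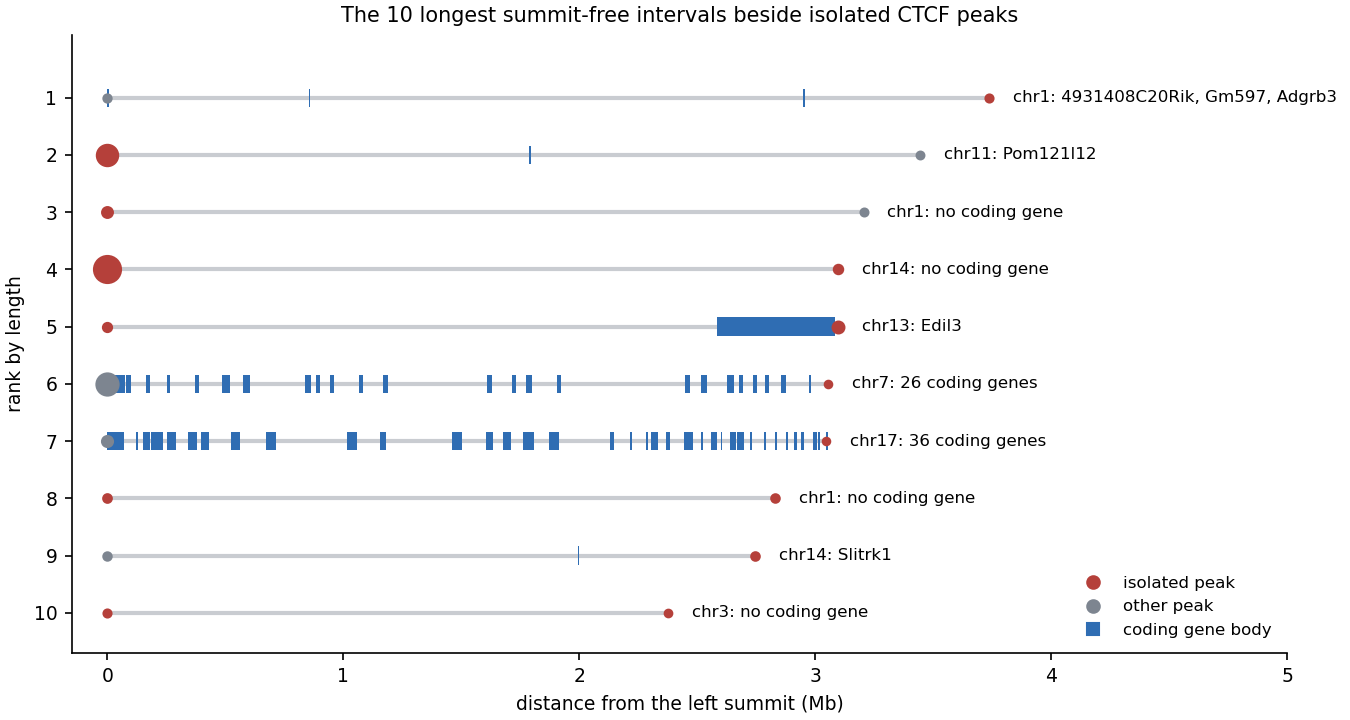
The 10 longest summit-free intervals beside isolated peaks, each drawn from its left summit (distance in Mb), with coding gene bodies as blue bars and edge peaks as dots whose size grows with signal. Intervals 6 and 7 are filled with vomeronasal receptor genes, and intervals 3, 4, 8 and 10 hold no coding gene.

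Other remote members had closer values in the 2 libraries. The peak 1560.3 kb from the start of Efna5, an ephrin ligand gene, had its nearest summit at 1138.1 kb and a signal of 23.7, with 10.8 and 13.5 in replicates 1 and 2. The peak 1051.6 kb from Sis, the intestinal sucrase-isomaltase gene, had its nearest summit at 1130.2 kb, with 13.9 and 10.2 in the replicates. The next, 418.8 kb from Tpm3-rs7 and 840.9 kb from Ptprd, had nearest summits at 1117.4 and 1090.9 kb and pooled signals of 44.5 and 46.5. All 5 most remote peaks had a motif match, and their pooled signals lay between 15.2 and 46.5.

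Chemoreceptor genes took a large part of the genes in the intervals. Of 1128 olfactory receptor genes on these chromosomes, 523 (46.4%, 43.4 to 49.3) lay wholly inside an interval beside an isolated peak, spread over 30 intervals on 9 chromosomes, against 6.6% of all coding genes. Of 327 vomeronasal receptor genes, 184 (56.3%) did, in 25 intervals on 8 chromosomes, but only 93 with the conservative peak list in place of the optimal one. Of 38 taste receptor genes, 24 (63.2%) did, all in 2 intervals of 1 chromosome. Beta-defensin genes, which encode antimicrobial peptides, had 18 of 42 (42.9%) inside, and keratin and keratin-associated genes had 20 of 110 (18.2%). Genes of a family sit in clusters, so these shares rest on few places and their intervals are too narrow as a measure of independent cases. Predicted gene models had 165 of 1228 (13.4%) inside, zinc finger protein genes 50 of 415 (12.05%), serpin genes 6 of 60 and cytochrome P450 genes 6 of 100 (6.0%). The killer cell lectin-like receptor genes (26) and major urinary protein genes (22), also multigene families, had none inside.

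The olfactory arrays of chromosome 2 show the arrangement most fully. A row of 6 isolated peaks from 85561380 to 89544722 divided 3.98 Mb that 195 coding genes touched, nearly all olfactory receptor genes. The intervals between them held 8, 45, 40, 43 and 54 olfactory receptor genes. The peaks in that row had signals between 17.1 and 224.0 with a median of 111.7, above the isolated median of 44.3, and all 6 had a motif. The row was picked after its values were seen. On chromosome 7, the signals of isolated peaks at the edges of olfactory intervals included 145.3, 81.9, 34.6, 20.3, 28.6 and 97.8. Isolated peaks between olfactory intervals elsewhere included those with 35.1 on chromosome 1, 31.4 on chromosome 9, 46.6 on chromosome 14 and 51.7 on chromosome 19. Intervals with an olfactory receptor gene inside had 18.8 pooled entries per Mb, those with a vomeronasal receptor gene 11.5, those with other coding genes only 34.1 and those touched by no coding gene 37.7. Whether reads could be placed in the olfactory arrays was not tested either, so an interval without a summit there need not be one without a bound site.

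Few genes of the developmental lists lay wholly inside an interval, and the lists differed more in how many genes touched one. Touching means any overlap, so the genes touched include those wholly inside. For all coding genes these shares were 6.6% inside and 8.52% touching. The 1374 genes inside include 523 olfactory and 184 vomeronasal receptor genes, so the 6.6% leans on those arrays. A share below 6.6% is therefore not read as a lack of the genes of a list. None of 76 limb patterning genes lay wholly inside (0%, which with the exact interval allows up to 4.74%), and 5 (6.58%) were touched, among them Ebf1, Epha7, Fgf10 and Gli3. None of 47 cartilage and bone genes lay inside and 8 (17.0%) were touched, among them Sox5, Trps1 and Mef2c, which encode transcription factors of the skeleton. None of 32 muscle and tendon genes lay inside or was touched. Of 43 nerve and guidance genes, 1 (2.33%) lay inside, Epha5, and 19 (44.2%) were touched, among them Robo2, Dcc and Cntn4. The contactin and neurexin family had 1 of 18 inside and 10 (55.6%) touched, and glutamate receptor genes had 1 of 26 inside and 9 (34.6%) touched. GABA receptor genes had 4 of 16 inside and 7 (43.8%) touched, and leucine-rich repeat synaptic genes 1 of 31 inside and 5 (16.1%) touched. Cadherin and protocadherin genes had 1 of 95 inside and 12 (12.6%) touched, and potassium channel genes 2 of 92 inside and 8 (8.70%) touched. The forkhead, Sox, Pou and Irx transcription factor genes had 0 of 65 inside and 2 (3.08%) touched. Gene length differs between these lists, and its part in the inside and touching counts was not tested.

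**Figure D5:**
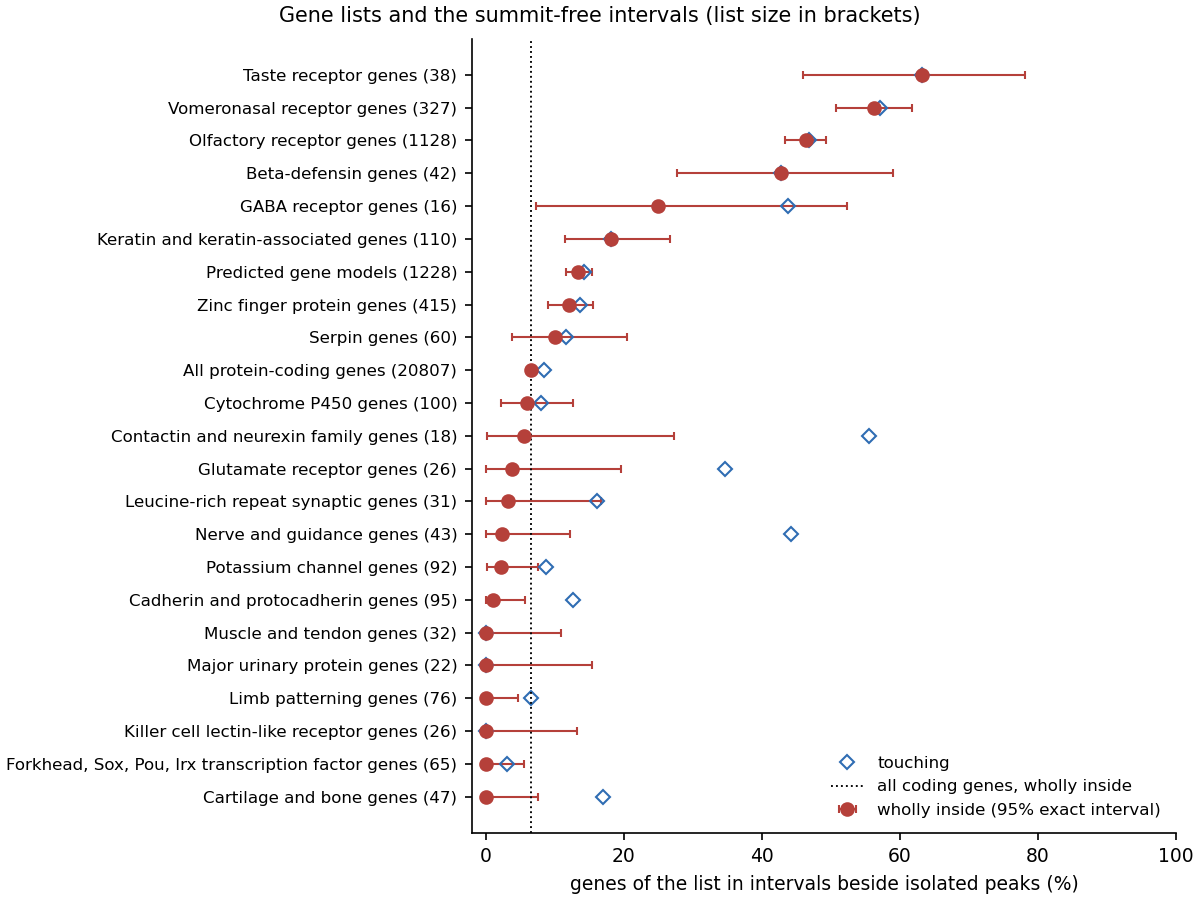
Share of the genes of each list (%) wholly inside a summit-free interval beside an isolated peak (red, 95% exact interval) or touching one (blue diamonds). List sizes are in brackets, and the dotted line marks the 6.6% of all coding genes, receptor families included. Taste, vomeronasal and olfactory receptor genes lie far right of the line, and contactin and neurexin, nerve and guidance, and glutamate receptor genes are far right only for touching.

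The orientation of the motifs at both edges was read as convergent (pointing toward each other), tandem or divergent. With a motif at both edges, 270 of 988 intervals beside isolated peaks were convergent (27.3%, 24.6 to 30.2), 551 were tandem (55.8%) and 167 were divergent (16.9%). Among 1144 other intervals over 150 kb, whose edge peaks each had a closer summit on the far side, 38.7% (35.9 to 41.6) were convergent, 46.3% tandem and 14.9% divergent. Over 31473 other neighbouring pairs at any distance, which include those 1144, 22.6% were convergent and 24.5% divergent. Convergent intervals beside isolated peaks had a median length of 345.4 kb, against 263.9 kb for divergent ones. Neighbouring intervals share an edge peak, so the counts are not independent. Chromosome ends apart, an isolated peak edges an interval on either side, and its motif points into the interval on a single side. The rule itself thus limits the convergent share beside isolated peaks. The other intervals over 150 kb are not bound in this way, so 27.3% and 38.7% are not read as a difference between kinds of sites.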

How the data were processed

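CTCF ChIP-seq was deposited for 2 libraries of pooled embryonic limb, as 5 narrowPeak lists on mm10. Per the notes deposited with each library, the replicate lists came from that library's alignments, a pooled list from both, and the optimal and conservative lists from all of these. For the aligner, peak caller, control and thresholds, names were not given in the sources used here. Signal per peak is as deposited by the authors, on the scale of its own list, with an unknown normalization and no read depth. The members and lists were chosen with earlier results of these data known.

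Summits on chromosomes 1 to 19 were compared with GRCm38.p6 and GENCODE M21, with the first TSS of 20807 protein-coding genes. A peak was isolated with no optimal summit within 150 kb. Replicate signal was that of the nearest summit within 100 bp. The motif was learned from the 1000 strongest other peaks of odd chromosomes, with no isolated peak, and called at the score that 5% of windows 1 kb from summits reach. A gene was inside an interval when its whole body lay between the summits. Gene lists were matched by symbol. Named members were the 10 strongest, the 5 most remote, the 10 strongest promoters and those whose nearest coding gene was a developmental gene within 100 kb. The replicate extremes, the 3 on each side of the threshold and the 10 longest intervals were named too. The 3 weakest members, the Ebf1 gene end and the row of 6 on chromosome 2 were added after their values were seen.

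Shares have 95% exact binomial intervals and medians 95% order-statistic intervals, which cover counting error only. No test was run, since members were selected on the peaks themselves. The steps were tested on simulated data. Alternatives changed the distance, the list, the match, the motif score, the promoter width and the replicate used. Python 3.11.15, numpy 2.4.6, pandas 2.3.3 and scipy 1.17.1 were used.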

Additional observations from a re-analysis of the deposited data

How the results depend on the processing

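Of 66 recomputed values, 50 kept their direction and stayed within the interval of the reported value, or within 1.5 times of it for a count, 15 moved and 1 reversed. The reversed value was the share of isolated peaks found in both replicates: among the strongest 100000 peaks of each it was 96.96% for isolated and 95.5% for other peaks, against 77.99% and 81.3% as reported, so the lower share of isolated peaks depends on the length of the lists compared. With a distance of 100 kb, 1615 peaks were isolated, the median TSS distance was 214.8 kb and the median interval 201.1 kb. With 200 kb these were 496 peaks, 366.8 kb and 382.9 kb, as the rule itself fixes. The median signal, motif, promoter and repeat shares stayed within their intervals at both distances, in the conservative list and after merging summits within 1 kb. Requiring isolation from the strongest 100000 pooled peaks left 239 members. The stricter motif score gave 62.3%, a promoter width of 5 kb 19.3%, coding starts only 4.10%, starts of any transcript a median of 31.1 kb, and repeats over most of the bases around the summit 7.73%. In each of these the difference from other peaks kept its direction. Built without replicate 1 or without replicate 2, the rule kept 826 to 853 peaks with median signals of 21.4 to 24.9 on the replicates' own lower scale, against 28.8 to 30.2 for other peaks, motif shares of 82.9% to 84.6%, promoter shares of 8.21% to 9.08%, repeat shares of 10.7% to 12.3%, TSS distances of 296.4 to 298.7 kb and intervals of 294.2 to 296.4 kb. The 4 alternatives for each receptor family were chosen after seeing the data. With the conservative list the vomeronasal receptor genes inside intervals numbered 93 instead of 184, and the olfactory ones 461 instead of 523. With intervals of at least 10 pooled entries per Mb only, these were 143 vomeronasal and 523 olfactory receptor genes. Every interval with an olfactory receptor gene reached this cutoff, which is far below the 123.2 entries per Mb of the autosomes. The unchanged olfactory count therefore cannot show whether reads could be placed there. Weak peaks are limited by the unknown depth. No paired analysis was possible because there is a single group.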

Other observations

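Some isolated peaks divided clusters of epidermal and host defence genes. On chromosome 11, a peak at summit 99854267 with a signal of 53.6 stood between an interval of 279.9 kb with 13 keratin-associated genes, from Krtap1-5 to Krtap4-16, and an interval of 150.7 kb with 7, from Krtap9-1 to Krtap17-1. These genes encode proteins of hair. The outer edges of the 2 intervals had signals of 229.0 and 189.3. On chromosome 8, the interval from 21756590 to 21955526 held 9 beta-defensin genes, from Defb1 to Defb13, and that from 19161770 to 19332048 held 6, from Defb14 to Defb3. Pooled entries per Mb varied widely among intervals with many predicted gene models. The interval on chromosome 14 from 6108725 to 7487597 held 29 such models and no other coding gene, with 2.90 entries per Mb and 61.2% soft-masked bases. The first keratin interval, which also held 12 such models, had 60.7 entries per Mb, and intervals with 9 on chromosome 4 and 7 on chromosome 10 had 30.5 and 36.9. Whether reads could be placed in these arrays was not tested.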
